A study of Mus musculus with 6 samples.

Results

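Lymphatic endothelial cells line the vessels that drain fluid and immune cells from the heart. Among single-cell transcriptomes of mouse heart cells other than cardiomyocytes, 133 barcodes were assigned to this cell type out of 30014 barcodes kept (34940 in the matrices). A barcode was kept with at least 1000 UMIs (unique molecular identifiers, each standing for 1 captured RNA molecule), at least 200 genes and at most 20% mitochondrial UMIs. A kept barcode counted as lymphatic endothelial when Prox1, Mmrn1, Flt4 and Reln together had at least 3 UMIs, Prox1 and Mmrn1 together at least 1, Csf1r and Ptprc none, and Col1a2 at most 2. Those genes chose the cells, so their levels in the cells are a description and not a finding.

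The 6 libraries cover 3 conditions in each of 2 genotypes: 24 h after a sham operation, 24 h after LAD ligation, which ties off the left anterior descending branch of the coronary arteries and causes a myocardial infarct, and 72 h after the same ligation. Wild-type (WT) mice were of strain C57BL/6JRj, and knockout (KO) mice were B6.Cg-Trpm4tm1.2-PG, which lack the calcium-activated cation channel Trpm4. All animals were males of 8 to 12 weeks. Ventricles were digested with thermolysin and papain, cardiomyocytes were held back by a mesh, and viable cells (Calcein-AM and DAPI) of 4 mice were sorted and pooled into each 10x 3' library. Each group is therefore 1 library and 1 pool of mice, so that nothing here carries a test between groups, and no spread between mice can be given. Intervals are exact 95% intervals and cover counting error only. No 72 h sham library was analysed here.

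Lymphatic endothelium is set apart from blood endothelium by the transcription factor Prox1 and by the VEGF-C receptor Flt4 (VEGFR3). Initial lymphatic capillaries carry the hyaluronan receptor Lyve1 and secrete the chemokine Ccl21a, which guides dendritic cells and T cells into the vessel, while collecting vessels and valves lose Lyve1 and depend on the transcription factor Foxc2. After a myocardial infarct the cardiac lymphatics are known to expand and to clear fluid and leukocytes from the injured wall.

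The numbers of lymphatic endothelial cells were 44 in WT sham, 26 in KO sham, 19 in WT at 24 h, 10 in KO at 24 h, 19 in WT at 72 h and 15 in KO at 72 h. Their median depth was 10076.5, 7181.5, 12512, 6927, 8327 and 3026 UMIs in the same order. The KO 72 h library stands apart: its kept cells had a median of 2182.5 UMIs against 3248 to 8559 in the other libraries, and 8 of its 15 lymphatic cells had only 3 or 4 UMIs of the rule genes. Between any pair of libraries 3 to 14 barcodes were shared, at most 0.206% of the smaller library, and none of them was a lymphatic cell. Just outside the rule, 23 otherwise eligible cells had 2 UMIs of the 4 rule genes, and 12 cells just inside had 3. A doublet caller (Scrublet) marked 1 of the 133 cells. It was not used to remove cells in the values below.

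Trpm4 itself was barely captured in lymphatic cells, with 10 UMIs in all. They were 4 in WT sham, 0 in KO sham, 2 in WT and 1 in KO at 24 h, and 2 in WT and 1 in KO at 72 h. Over all kept cells, Trpm4 was at 8.78 CPM (a gene's UMIs per 1000000 UMIs) in WT sham against 6.03 in KO sham, 5.48 against 3.46 at 24 h, and 4.24 against 2.58 at 72 h. The gene lies at chr7:45302632-45333780 on the minus strand (GRCm38). A 3' tag can lie outside the deleted part of a gene, and which exons are deleted is not given in the sources used here, so these levels do not check the genotype labels.

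The lymphatic name was checked against 18 lymphatic markers that the rule did not use. Of these, 17 were higher in lymphatic than in blood endothelial cells (7080 cells with at least 3 UMIs of Cdh5, Kdr, Flt1 and Egfl7 together, no Prox1, Mmrn1 or Reln, and the same limits on Csf1r, Ptprc and Col1a2) in 6 of 6 libraries. Ccl21a had a median log2 ratio of 11.49 over the libraries (range 6.29 to 13.75). Pdpn, the podoplanin that marks lymphatic vessels, was at 7.86, the transcription factor Maf at 7.81, Lyve1 at 6.42, and the transcription factor Tbx1 at 6.80. The exception was Sox18, a transcription factor of both endothelia, at a median of -0.57 and lower in 6 of 6. Of all 11561 genes measured, 25% were at least 2-fold higher and 5.41% at least 2-fold lower in lymphatic cells by the median. The cells were chosen on this contrast, and nothing is read from those shares.

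**Figure D1:**
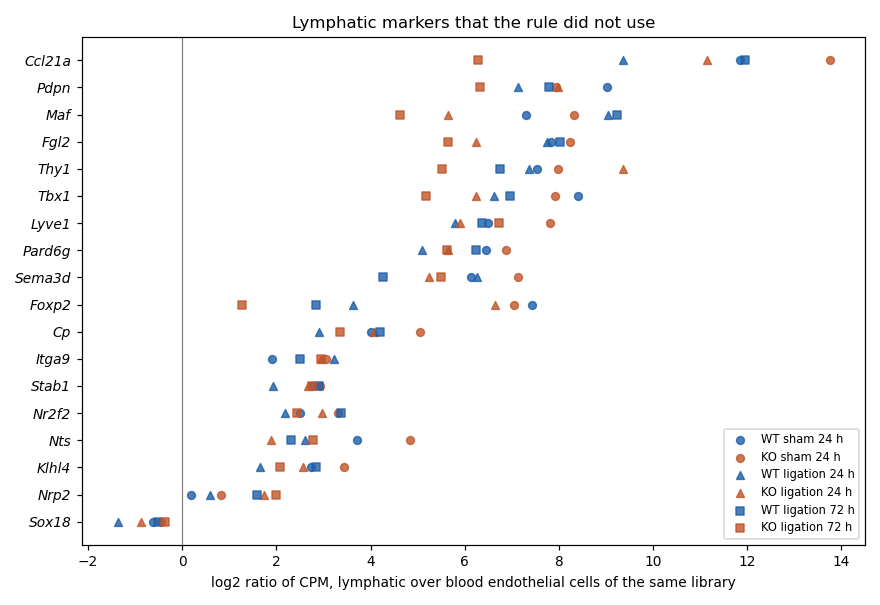
Log2 ratio of CPM in lymphatic over blood endothelial cells of the same library (x axis) for the 18 lymphatic markers that the rule did not use (y axis), with 1 point per library. In 17 of the 18 markers all 6 points lie above 0, and for Sox18 all 6 lie below it.

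Beyond classical markers, the genes highest against blood endothelium included Fgl2, a fibrinogen-like secreted protein (median log2 ratio 7.79), the cell surface protein Thy1 (7.44), the tenascin Tnxb (6.16), the protease inhibitor Serpina3n (6.14), the guidance cues Sema3d (5.81) and Sema3a (5.32), the lipopolysaccharide-binding protein Lbp (4.89) and the chemokine-scavenging receptor Ackr2 (4.73). The cytokine Il7, which sustains lymphocytes, was at 5.89. Among ion channels, the mechanosensitive Piezo2 was at 4.65 and Trpv2 at 2.54, each higher in 6 of 6 libraries. The lowest genes were those of capillary endothelium: Ly6c1 at -6.50, the fatty acid transporter Cd36 at -6.36, Ly6a at -6.18 and Rgcc at -5.55. Of the 16 genes of fatty acid and lipid handling, 9 were at least 2-fold lower, including Fabp4 (-4.49), Lpl (-4.01) and Gpihbp1 (-3.38), and 1 was higher, the cholesterol exporter Abca1 (1.79).

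Junction and receptor genes divided. Claudin Cldn5 was at 1.82 and higher in 5 of 6 libraries, whereas Cdh5 (VE-cadherin) was at -1.28, Esam at -3.47 and Jam2 at -3.85, each lower in 6 of 6. Cdh5, Flt1 and Kdr helped to choose the blood endothelial cells. Of 12 growth factor receptors, Flt4, a rule gene, was at 3.65 and Nrp2, the co-receptor for VEGF-C, at 1.21. The VEGF-A receptor Flt1 was at -3.70 and the co-receptor Nrp1 at -4.05. VEGF-C itself was nearly absent from lymphatic cells, with 2 Vegfc UMIs, both in the WT 24 h library, against 33.3 to 64.2 CPM of Vegfc in blood endothelial cells of the 6 libraries. Lymphatic cells had no UMI of Ccbe1 or Adamts3, which activate VEGF-C outside the cell.

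Markers of other cell types were measured next. Summed over 9 markers, blood capillary transcripts reached 972 to 2487 CPM in lymphatic cells against 16986 to 47931 CPM in blood endothelial cells. The 6 mesothelial markers had 0 UMIs in 5 libraries and 1.90 CPM in WT sham, from Wt1 alone. The 5 endocardial markers (Npr3, Vwf, Plvap, Cytl1, Tmem108) summed to 350 to 994 CPM in lymphatic cells against 259 to 682 CPM in blood endothelial cells, and 5 of the 133 cells had at least 5 UMIs of Npr3 and Vwf together. Cytl1 and Hand2 together had at least 3 UMIs in 11 of the 133 cells, among them 3 of the 19 cells of WT at 24 h. In WT at 24 h, 5 cardiomyocyte markers summed to 2579 CPM against 3.99 to 221 CPM in the other libraries, and a single cell held 99.6% of the Myl2 UMIs of that library. In the same library neutrophil markers summed to 1339 CPM, against 3.99 to 298 CPM elsewhere, all 4 of them with UMIs, and 1 cell held 294 of the 324 neutrophil marker UMIs. At 72 h the 6 platelet markers summed to 387 CPM in lymphatic cells of the WT library and to 260 CPM in those of the KO library, against 4.99 to 28.9 CPM in the other libraries, and to 37.1 and 269 CPM in blood endothelial cells at 72 h. A single WT cell at 72 h held 56 of the 97 platelet marker UMIs, all of Pf4. That cell entered by 3 Mmrn1 UMIs and had none of Prox1, Flt4, Ccl21a, Lyve1, Pdpn, Cdh5 or Pecam1, which goes against its lymphatic name. The 7 fibroblast markers reached 1133 CPM in KO sham and 236 to 467 CPM elsewhere. In KO at 72 h, 6 macrophage markers summed to 1273 CPM in lymphatic cells, without Adgre1 and, by the rule, Csf1r, against 37.2 to 110 CPM in the other libraries. Blood endothelial cells of the KO 72 h library carried nearly the same sum, 1464 CPM. The macrophage gene Lyz2 had a UMI in 12 of the 15 KO lymphatic cells at 72 h. The part of these transcripts in the results below was not tested unless a value is given.

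Lymphatic endothelial cells were a small share of every library. They made up 0.826% of kept cells in WT sham (44 of 5328, exact binomial interval 0.601% to 1.11%), 0.446% in KO sham (0.292% to 0.653%), 0.594% in WT at 24 h (0.358% to 0.925%), 0.149% in KO at 24 h (0.0712% to 0.273%), 0.431% in WT at 72 h (0.260% to 0.673%) and 0.332% in KO at 72 h (0.186% to 0.547%). The KO library was lower than the WT library in each condition, with ratios of 0.540, 0.250 and 0.770. The intervals of the genotypes were apart only at 24 h.

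Among endothelial cells the order was different. The lymphatic share was 1.94% in WT sham (1.41% to 2.59%) and 0.827% in KO sham (0.541% to 1.21%). It was 2.95% in WT (1.79% to 4.57%) and 1.52% in KO (0.731% to 2.78%) at 24 h, and 7.39% in WT (4.51% to 11.3%) and 6.33% in KO (3.59% to 10.2%) at 72 h. The 72 h shares were thus 2.51 and 4.16 times those at 24 h, while the blood endothelial cells numbered 238 and 222 at 72 h, against 625 and 648 at 24 h and 2228 and 3119 after sham. With at least 5 rule-gene UMIs in place of 3, the KO 72 h share was 3.06% (7 cells, 1.24% to 6.196%) against 1.37% at 24 h (0.628% to 2.58%), and these intervals overlap, while the WT shares were 7.03% (4.22% to 10.9%) and 2.34% (1.32% to 3.84%). A share of sorted cells depends on the other cells recovered, and loss of blood endothelium and gain of lymphatic endothelium cannot be told apart here.

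The rule depends on depth, so each cell was also thinned to 1000 UMIs before it was applied. That left 20, 15, 4, 3, 10 and 11 lymphatic cells in WT sham, KO sham, WT 24 h, KO 24 h, WT 72 h and KO 72 h. The thinned share of endothelial cells was 1.01%, 0.542%, 0.725%, 0.547%, 5.13% and 6.21%. The share at 72 h was above the other times in both genotypes, and the intervals at 24 h and 72 h were apart in each (0.198% to 1.84% and 2.49% to 9.23% in WT, 0.113% to 1.59% and 3.14% to 10.8% in KO). Of kept cells, the thinned share at 72 h was 0.243% in KO and 0.227% in WT, so KO was no longer the lower. At 24 h it was 0.0446% in KO (0.00919% to 0.130%) and 0.125% in WT (0.0341% to 0.320%), and the intervals overlapped. The higher share at 24 h than after sham was not kept: in WT it turned to 0.715 times the sham share, and in KO the 24 h and sham values were alike.

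**Figure D2:**
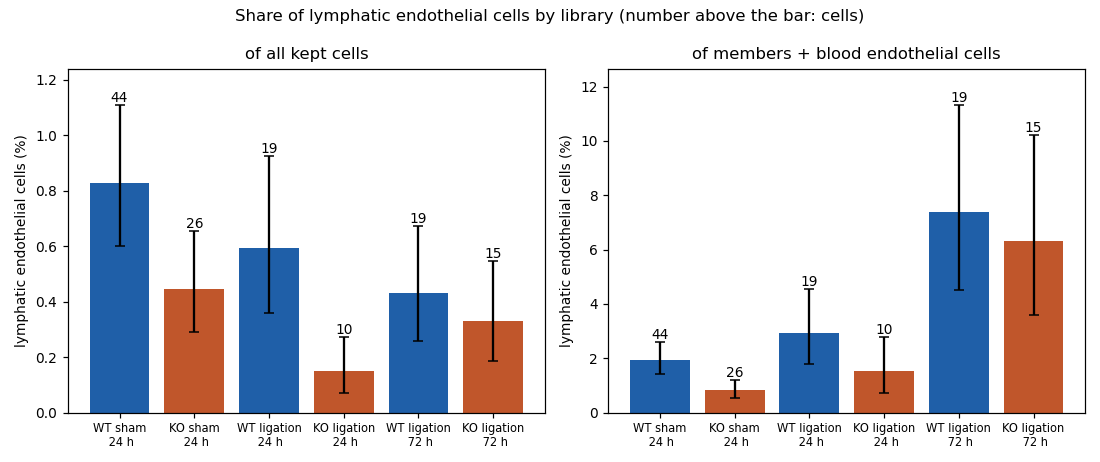
Lymphatic endothelial cells as a percentage of all kept cells (left) and of lymphatic plus blood endothelial cells (right) in each library, blue for WT and orange for KO, with exact 95% binomial intervals and the number of cells above each bar. On the left the sham libraries hold 0.826% and 0.446%; on the right the 72 h libraries reach 7.39% and 6.33%.

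A further group of cells in the KO 72 h library carried Ccl21a but missed the rule. Outside the lymphatic cells, 22 kept cells there had at least 10 Ccl21a UMIs, against 0 to 2 in the other libraries. Of the 23 such barcodes before the cell filter, 17 missed the requirement on the 4 rule genes and 17 held Csf1r or Ptprc. Lymphatic cells accounted for 43.6% of all Ccl21a UMIs in that library and for 83.8% to 94.9% in the others. Blood endothelial cells carried Ccl21a at 99.9 CPM in that library and at no more than 1.64 CPM elsewhere. With the 22 cells added, the group would be 37 cells, 0.819% of kept cells and 14.3% of endothelial cells. The KO to WT ratio at 72 h would then turn from 0.770 to 1.80 for kept cells and from 0.856 to 1.85 for endothelial cells, so its direction rests on these cells.

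Lyve1 and Ccl21a differed among the lymphatic cells. Of the 133 cells, 92 had a UMI of Lyve1, 87 of Pdpn and 79 of Ccl21a, and 24 had none of these 3. At least 5 Lyve1 UMIs were found in 65 cells, called Lyve1-high here. In WT sham the 18 Lyve1-high cells held Ccl21a at 18934 CPM with a median of 163 UMIs per cell, and the other 26 cells at 470 CPM with a median of 0. In KO sham the values were 12311 CPM in 14 cells and 799 CPM in 12 cells. In the sham libraries the other cells were no shallower, with median depths of 12006 and 7510.5 UMIs against 8023.5 and 7095.5 in Lyve1-high cells. Foxc2 had a UMI in 42 cells, of which 26 were not Lyve1-high. Cldn11, a claudin of lymphatic valves, was found in 9 cells. Before thinning, a Ccl21a UMI was present in at most 0.628% of blood endothelial cells in 5 libraries, at median depths of 2949 to 4097 UMIs, and in 5.86% in KO at 72 h.

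At 24 h after ligation, lymphatic cells held less Ccl21a and more Lcn2 than after sham, in both genotypes. Ccl21a was at 6017 CPM in WT sham and 665 CPM in WT at 24 h, and at 7275 CPM in KO sham and 1999 CPM in KO at 24 h. Both 24 h libraries were below both sham libraries. The log2 ratio was -3.18 (interval -3.41 to -2.95) in WT and -1.86 in KO. Among 6 annotated Ccl21 rows only that of ENSMUSG00000094686 (chr4:42772860-42773993, minus strand, GRCm38) had UMIs in these cells, and near-identical copies of this gene lie close by, so that reads could be shared between them.

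The lower Ccl21a was also seen within Lyve1-high cells. There it was 18934 CPM in WT sham and 1274 CPM in WT at 24 h, and 12311 CPM in KO sham and 3513 CPM in KO at 24 h. The median Lyve1-high cell had 163 and 52 Ccl21a UMIs after sham and 3.5 and 1.5 UMIs at 24 h. None of the 13 cells with fewer Lyve1 UMIs at 24 h (9 in WT, 4 in KO) had a Ccl21a UMI. Over all lymphatic cells, 54.5% and 57.7% had Ccl21a after sham and 36.8% and 30.0% at 24 h, and thinned to 1000 UMIs 37.9% and 54.4% against 19.9% and 23.6%. Lyve1 was at 739 CPM in WT sham and 1608 CPM in WT at 24 h, and at 1922 CPM in KO sham and 2817 CPM in KO at 24 h. In WT it was past 2-fold higher, and at a log2 ratio of 0.49 without the cell with most Lyve1. Here and below, leaving out the top cell of a gene (the cell with most of its UMIs) removes that cell's UMIs of the gene. The other UMIs of the cell stay in the depth.

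Lcn2 encodes lipocalin 2, a protein that binds bacterial siderophores and is induced in inflammation. In lymphatic cells Lcn2 was at 817 CPM in WT sham and 4067 CPM in WT at 24 h, a log2 ratio of 2.32, and at 1478 CPM in KO sham and 3546 CPM in KO at 24 h, a log2 ratio of 1.26. Without the cell with most Lcn2 these were 2.07 in WT and 0.84 in KO. At 72 h the Lcn2 levels were 156 CPM (WT) and 179 CPM (KO), below every other library. At least 10 Lcn2 UMIs were found in 15 of 19 and 8 of 10 cells at 24 h, in 16 of 44 and 10 of 26 after sham, and in 0 of 19 and 0 of 15 at 72 h. Lcn2 in leukocytes, which include the neutrophils that store the protein, was at 266, 324, 1064, 1565, 28.5 and 39.1 CPM in WT sham, KO sham, WT 24 h, KO 24 h, WT 72 h and KO 72 h. In blood endothelial cells Lcn2 was at 11.3, 26.3, 152, 144, 2.77 and 4.93 CPM. Lymphatic cells were above both in every library, and all 3 cell types were highest at 24 h and lowest at 72 h. At 24 h neutrophil markers in lymphatic cells summed to 1339 CPM (WT) and 298 CPM (KO).

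The promoter of Lcn2 is shown because Lcn2 differed between times in both genotypes and in most cells. The 250 bases before its RefSeq start (GRCm38.p6, chr2:32387740-32387989, minus strand, written 5′ to 3′ along the gene) hold 1 match, in capitals, to TTGCNNAA, letters bound by C/EBP transcription factors.
Lcn2: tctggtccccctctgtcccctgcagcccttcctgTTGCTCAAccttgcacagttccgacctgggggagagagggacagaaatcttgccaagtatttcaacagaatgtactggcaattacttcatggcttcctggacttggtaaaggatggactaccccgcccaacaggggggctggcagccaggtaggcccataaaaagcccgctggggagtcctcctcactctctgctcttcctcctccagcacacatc
These letters were searched on both strands in the 250 bases before each gene's start. They occurred in 6 of 16 inflammatory genes with a window (37.5%) and in 10.8% of all 27025 genes. The kappaB motif, letters bound by NF-kappaB transcription factors, was searched as well and had no match before the start of Lcn2. It occurred in 4 of the 16 inflammatory genes (25%) and in 1.65% of all genes. Of the genes for C/EBP factors, Cebpb was at 177 and 220 CPM after sham, 331 and 133 CPM at 24 h and 36.0 and 53.8 CPM at 72 h in WT and KO, and Cebpd was at 218 and 260 CPM after sham, 351 and 177 CPM at 24 h and 104 and 98.6 CPM at 72 h in WT and KO.

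Among all genes, 2554 had at least 50 UMIs over the WT pair of 24 h and sham. Of them 3.33% were at least 2-fold higher and 3.45% at least 2-fold lower at 24 h. In KO, 940 genes were measured, with 5% higher and 8.09% lower. Among the 937 genes measured in both genotypes, 3 were at least 2-fold higher at 24 h in both: Lcn2, the urokinase receptor Plaur and the matrix protein Tinagl1. They are 23.1% of the 13 higher in WT and 6.52% of the 46 higher in KO. Of the Tinagl1 UMIs at 24 h, 22.8% in WT and 41.7% in KO lay in 1 cell. Without the top cell of the gene, Tinagl1 stayed past 2-fold in neither genotype. A further 14 were at least 2-fold lower in both, 51.9% of the 27 lower in WT and 18.7% of the 75 lower in KO. These genes were picked by their values in both genotypes, after those values were seen.

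Plaur, which binds the protease that activates plasminogen at the cell surface, was at 96.8 CPM in WT sham and 265 CPM in WT at 24 h, and at 89.9 CPM in KO sham and 420 CPM in KO at 24 h. Blood endothelial cells moved the same way, with Plaur at 18.9 and 26.2 CPM after sham and 224 and 165 CPM at 24 h. The genes lower in both genotypes included the membrane glycoprotein Gpm6a (220 and 364 CPM after sham, 49.6 and 144 CPM at 24 h), the ion pump regulator Fxyd6 (596 and 879 CPM, then 186 and 420 CPM), the secreted ligand Gas6 (199 and 325 CPM, then 66.1 and 77.3 CPM, with a WT log2 ratio of -1.59, and -0.78 without 1 cell), and Col18a1, the basement membrane collagen that yields endostatin (228 and 285 CPM, then 82.7 and 99.4 CPM). In each of these the 24 h library was below the sham library of its genotype. For Fxyd6 the KO log2 ratio was -1.07, and it was not past 2-fold without the top cell of the gene. Gpm6a had a UMI in 37 of 44 and 20 of 26 cells after sham and in 6 of 19 and 6 of 10 at 24 h.

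By gene list, 17 of the 18 lymphatic markers outside the rule were measured in WT, where Lyve1 was higher and Ccl21a and Klhl4 lower at 24 h, with a median log2 ratio of -0.28 over the list against 0.01 over all genes. In KO, 6 of 15 measured were lower (Ccl21a, Maf, Fgl2, Nts, Klhl4, Pard6g) and none higher, with a median of -0.82 against 0.05. Without the top cell of the gene 5 of the 6 stayed past 2-fold (not Maf), but for Nts 2 sham cells held 282 of 364 UMIs, and within Lyve1-high cells Nts was at 346 CPM after sham and 582 CPM at 24 h. Of the WT calls, Ccl21a stayed past 2-fold without the top cell, and Lyve1 and Klhl4 did not. Of 8 glycolysis and hypoxia genes in WT none passed 2-fold, with a median of 0.63, and in KO 2 of 6 did (Pgam1 and Pkm, neither without its top cell), with a median of 0.91. Of 14 matrix genes in WT 1 was lower (Mmrn2), and in KO Hspg2 and Fn1 were higher and Sparc and Timp2 lower among 10, of which Hspg2 alone stayed past 2-fold without its top cell. Of 9 measured lipid genes in WT, Cd36 was lower and none higher, with a median of 0.12. In KO, 4 of 5 were lower (Cd36, Fabp4, Fabp5, Apoe), with a median of -1.75, and Cd36 and Fabp5 stayed past 2-fold without the top cell of the gene, as Cd36 in WT did not. Cd36 was at 270 CPM in KO sham (54 UMIs), and 1 UMI was left in KO at 24 h. Interferon-induced genes were hardly measured at this stage, with 3 of 21 in WT and 2 in KO, none past 2-fold. The highest ratios in WT, such as Myl2, Tnnt2, Mb, Myl3 and Fabp3, were cardiomyocyte transcripts of 1 cell.

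**Figure D3:**
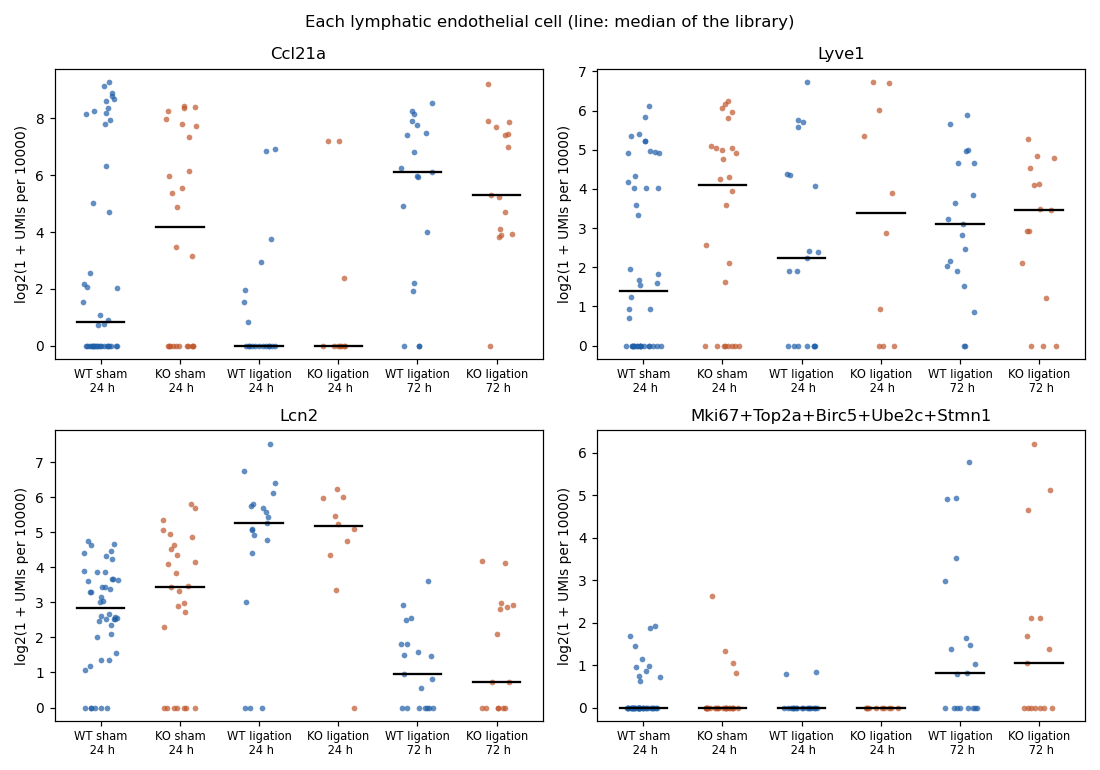
Each point is 1 lymphatic endothelial cell, as log2(1 + UMIs per 10000 UMIs of the cell) for Ccl21a, Lyve1, Lcn2 and the sum of 5 cell cycle genes, in the 6 libraries (blue WT, orange KO; the line is the median of the library). Ccl21a is at 0 in most cells at 24 h, Lcn2 is high there and low at 72 h, and cells with a high cell cycle sum appear at 72 h only.

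At 72 h after ligation, lymphatic cells of both genotypes again held Ccl21a, had more Isg15 and had little Lcn2. Cells with many cell cycle transcripts were 4 of 19 in WT and 1 of 15 in KO. This comparison and that of 24 h with sham share the 24 h libraries, so a gene low there is low in both. Ccl21a was at 6548 CPM in WT and 7828 CPM in KO at 72 h, against 665 and 1999 CPM at 24 h, with log2 ratios of 3.30 and 1.97. A Ccl21a UMI was found in 16 of 19 and 14 of 15 cells. In cells with fewer than 5 Lyve1 UMIs, Ccl21a was higher than in such cells after sham. It was at 6002 CPM in WT (8 cells) and 4907 CPM in KO (9 cells), against 470 and 799 CPM. In KO, 8 of those 9 cells were at 3 or 4 rule-gene UMIs, all 8 carried Lyz2, and they held 192 of the 232 Ccl21a UMIs, so that the KO value rests on cells near the limit of the rule with a macrophage transcript. In Lyve1-high cells Ccl21a was at 6749 and 9977 CPM, below the sham values. At 72 h the cells with fewer Lyve1 UMIs were the shallower ones, with median depths of 5868.5 and 2360 UMIs against 10756 and 8287.5, so fewer Lyve1 UMIs and a lower Lyve1 level cannot be told apart there. In the KO 72 h library some Ccl21a lay outside lymphatic cells as well, at 99.9 CPM in blood endothelial cells.

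Of the 1709 genes measured in WT, 6.9% were at least 2-fold higher and 7.2% lower at 72 h than at 24 h. In KO, 618 genes were measured, with 7.77% higher and 5.5% lower, and the median of all genes was at a log2 ratio of -0.11. Among 614 genes measured in both genotypes, 23 were at least 2-fold higher in both, 52.3% of the 44 in WT and 52.3% of the 44 in KO. A further 16 were lower in both, 50% of the 32 in WT and 47.1% of the 34 in KO. The genes of these overlaps were picked by their values. Among the lymphatic markers, 7 of 17 were higher in WT (Ccl21a, Pdpn, Nrp2, Nts, Stab1, Klhl4, Tbx1) and none lower. In KO 3 of 9 were higher (Ccl21a, Nrp2, Nts) and Lyve1 was lower. Without the top cell of the gene, Nrp2, Ccl21a, Stab1 and Tbx1 stayed past 2-fold in WT and Ccl21a alone in KO, where 63.8% of the Nts UMIs lay in 1 cell and its log2 ratio went from 1.49 to 0.03.

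**Figure D4:**
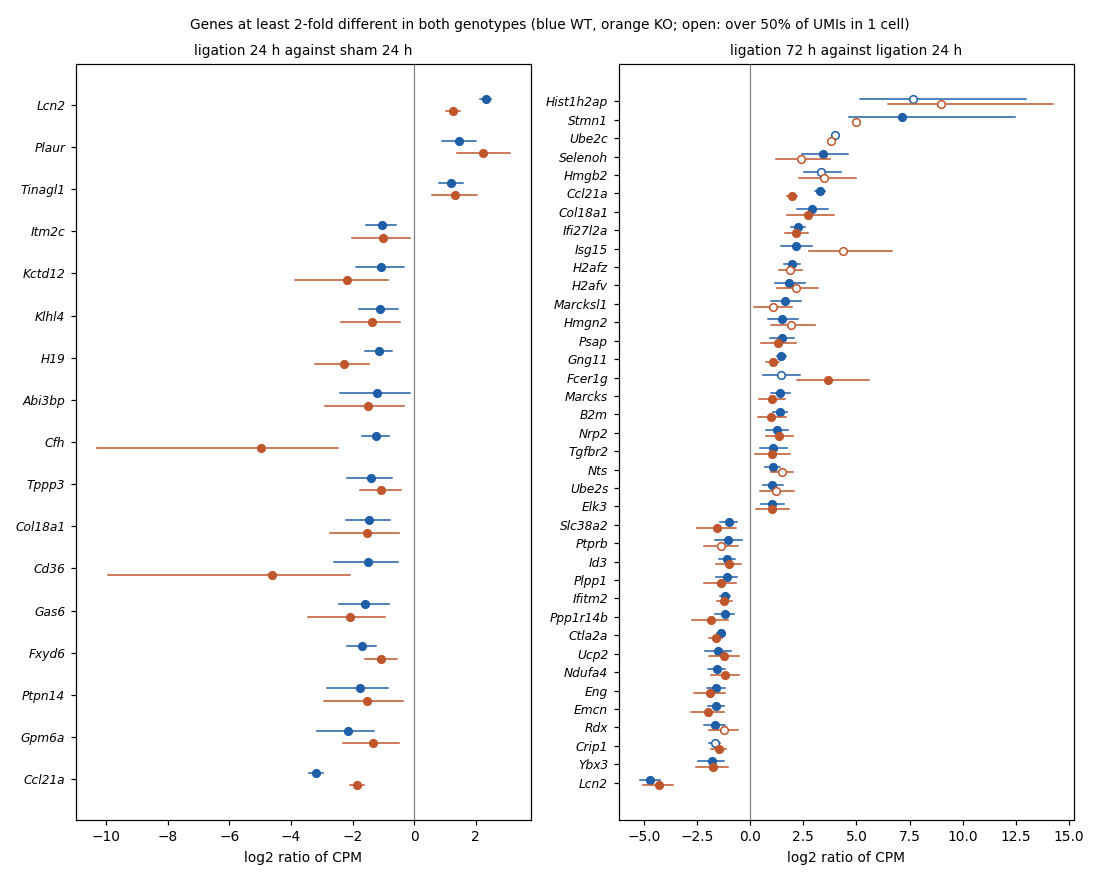
Log2 ratios of CPM in lymphatic endothelial cells for the genes that passed 2-fold in WT and KO alike (blue WT, orange KO), for 24 h against sham (left) and 72 h against 24 h (right), with exact 95% intervals for counting error where neither library has 0 UMIs. Open points are ratios of which over 50% of the UMIs lie in 1 cell, and mt-Atp8 is not drawn. Ccl21a is among the lowest on the left and positive on the right, and Lcn2 is positive on the left and negative on the right.

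Of 9 growth factor receptors measured in WT, Nrp2 was at least 2-fold higher at 72 h and Ptprb lower, the latter not without its top cell. Of 7 in KO, Flt4, Kdr, Nrp2 and Calcrl were higher and Ptprb lower, and none of the 5 stayed past 2-fold without the top cell of the gene. Nrp2, the VEGF-C co-receptor, was at 224 CPM in WT sham, 194 CPM at 24 h and 463 CPM at 72 h, and at 295, 331 and 852 CPM in KO. Its log2 ratio at 72 h against 24 h was 1.25 in WT and 1.36 in KO, and 1.03 and 0.88 without the top cell, with Nrp2 in 17 of 19 and 11 of 15 cells. In blood endothelial cells Nrp2 stayed between 99.4 and 213 CPM in the 6 libraries. Flt4, which helped to choose the cells, was at 335 and 453 CPM at 24 h and 511 and 968 CPM at 72 h in WT and KO. Kdr (VEGFR2) was at 256 and 331 CPM at 24 h and 336 and 735 CPM at 72 h. Flt1 had no UMI in lymphatic cells of either 72 h library. Of the ligands measured in WT, Angpt2 (285 CPM at 24 h, 83.9 CPM at 72 h), a ligand of the Tie2 receptor, and Pdgfb (240 and 116 CPM) were lower, Pdgfb not without its top cell. Adm, the adrenomedullin needed for lymphatic growth, was at 182 and 188 CPM.

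Of 21 interferon-induced genes, 5 were measured in WT, of which Isg15 and Bst2 were higher and none lower, and 3 in KO, of which Isg15 was higher. Without the top cell of the gene Isg15 stayed past 2-fold in both and Bst2 did not. Isg15, a ubiquitin-like protein, in lymphatic cells was at 38.0 CPM in WT sham, 59.9 in KO sham, 86.8 in WT and 33.1 in KO at 24 h, and 387 in WT and 681 in KO at 72 h. Both 72 h libraries were above the 4 others. Isg15 had a UMI in 10 of 19 and 9 of 15 cells at 72 h, and 1 cell held 45.4% of the UMIs in WT and 52.6% in KO. Without the Isg15 UMIs of that cell the log2 ratio at 72 h against 24 h was 1.29 in place of 2.16 in WT and 3.28 in place of 4.36 in KO. Blood endothelial cells carried Isg15 at 158 to 171 CPM up to 24 h and at 252 and 185 CPM at 72 h, so lymphatic cells were below them until 24 h and above them at 72 h. With the WT cell with most Isg15 dropped whole, the WT lymphatic level at 72 h was 235 CPM, below the blood endothelial cells. With only the Isg15 UMIs of that cell removed, the level was 212 CPM. Thinned to 1000 UMIs, the share of lymphatic cells with Isg15 was 2.95% and 7.54% after sham, 5.49% and 3.03% at 24 h, and 19.2% and 37.5% at 72 h.

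Ifi27l2a, which is outside the list and was picked after its values were seen, was at 376 and 387 CPM at 24 h and 1802 and 1731 CPM at 72 h in WT and KO, with log2 ratios of 2.26 and 2.16, in 17 of 19 and 13 of 15 cells. The Ifi27l2a level of leukocytes at 72 h was 2935 CPM (WT) and 1769 CPM (KO), and blood endothelial cells at 110 and 280 CPM. B2m, the light chain of MHC class I, was at 413 and 331 CPM at 24 h and 1083 and 664 CPM at 72 h, in WT and KO, and passed 2-fold in both, in KO not without the top cell (log2 ratio 0.28). H2-K1 and H2-D1, MHC class I heavy chains, did not pass 2-fold. Cd74 of the class II pathway had 42 UMIs in KO at 72 h and at most 3 in any other library, where macrophage markers also stood at 1273 CPM. Its level in blood endothelial cells of the KO 72 h library was 691 CPM, above the 377 CPM of Cd74 in lymphatic cells.

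The Isg15 promoter is shown because Isg15 was the interferon-induced gene of the list that was higher in both genotypes. Its 120 bases before the RefSeq start (GRCm38.p6, chr4:156200819-156200938, minus strand, 5′ to 3′ along the gene) hold 3 overlapping matches, in capitals, to the interferon-stimulated response element (TTTC, 2 bases of any kind, TTTC), all on the opposite strand.
Isg15: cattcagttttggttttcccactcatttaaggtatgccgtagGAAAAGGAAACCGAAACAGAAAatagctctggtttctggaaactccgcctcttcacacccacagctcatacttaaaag
The letters occurred in 8 of 18 interferon-induced genes with a window (44.4%) and in 3.46% of all genes. A match is a description of these letters, and binding was not measured.

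Lymphatic cells with many cell cycle transcripts were found at 72 h. At least 10 UMIs of Mki67, Top2a, Birc5, Ube2c and Stmn1 together were found in 4 of 19 WT cells (21.1%, exact binomial interval 6.05% to 45.6%) and 1 of 15 KO cells (6.67%, 0.169% to 31.9%), and in none of the 99 cells of the other 4 libraries. Mki67, a protein of cycling nuclei, had 47 UMIs in 5 WT cells and 18 UMIs in 1 KO cell at 72 h, and 0 elsewhere. Stmn1, a microtubule regulator, was at 4.13 CPM in WT and 0 in KO at 24 h, and 579 and 1031 CPM at 72 h. In KO 91.3% of the Stmn1 UMIs lay in 1 cell, against 37.9% in WT. The histone transcript Hist1h2ap rested on 1 cell in each genotype, with 96.7% and 99.0% of its UMIs. Of 5 proliferation genes measured in WT 4 were higher (Birc5, Tyms, Stmn1, Ube2c), and of 3 in KO 2 were (Stmn1, Ube2c). Without the top cell of the gene, Tyms in WT and Ube2c in KO did not stay past 2-fold. The list medians were 4.01 and 3.81, with genes at 0 UMIs at 24 h set at their lower bound. Against 0 UMIs at 24 h, Birc5 was at least 18.4-fold higher in WT (57 UMIs, 3 counts taken as the floor per library). In blood endothelial cells Mki67 was at most 7.86 CPM up to 24 h and 67.5 and 35.8 CPM at 72 h.

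Ube2c, a ubiquitin-conjugating enzyme that lets cells leave mitosis, was at 0 at 24 h and at 200 and 466 CPM at 72 h, with 86.0% and 88.5% of the UMIs in 1 cell. Its 150 bases before the RefSeq start (GRCm38.p6, chr2:164769779-164769928, plus strand) show, in capitals, 2 CCAAT boxes read on the opposite strand and 1 CHR element (TTTGAA, on the opposite strand), the letters typical of genes switched on late in the cell cycle.
Ube2c: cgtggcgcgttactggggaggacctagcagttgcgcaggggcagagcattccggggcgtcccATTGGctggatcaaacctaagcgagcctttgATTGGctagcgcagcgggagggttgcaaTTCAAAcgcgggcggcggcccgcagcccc
A CCAAT box occurred in 11 of 14 proliferation genes (78.6%) and 37.5% of all genes, and a CHR in 5 of 14 (35.7%) and 18.3%. The 150 bases before the RefSeq start of Birc5 held neither, on either strand. Birc5 rested less on 1 cell than Ube2c did, with 47.4% of its WT UMIs at 72 h in 1 cell. Its WT log2 ratio at 72 h against 24 h, a lower bound, was 3.27 without that cell.

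Of the list of Notch, TGF-beta and BMP genes, Eng and Id3 were lower and Tgfbr2 higher at 72 h in both genotypes. The co-receptor Eng (endoglin) was at 851 and 773 CPM at 24 h and 280 and 206 CPM at 72 h in WT and KO, with log2 ratios of -1.61 and -1.91, and -1.35 and -1.10 without the top cell. Id3 and Tgfbr2 did not stay past 2-fold without it in either genotype. Eng in blood endothelial cells was at 797 and 895 CPM at 24 h and 550 and 466 CPM at 72 h. The BMP target Id3 was at 769 and 762 CPM at 24 h and 364 and 377 CPM at 72 h, and Id1 at 372 and 331 CPM, then 71.9 and 197 CPM. In WT 4 of 7 measured genes of the Notch, TGF-beta and BMP list were lower (Hes1, Eng, Id1, Id3) and Tgfbr2, a TGF-beta receptor, was higher. In KO 2 of 4 were lower (Eng, Id3), with Tgfbr2 higher. Hes1 in WT did not stay past 2-fold without its top cell either. The sialomucin Emcn was at 980 and 707 CPM at 24 h and 320 and 179 CPM at 72 h, and the phosphatase Ptprb, which restrains Tie2, at 269 and 486 CPM, then 132 and 188 CPM, with 52.3% of its KO UMIs at 24 h in 1 cell. Col18a1 was higher at 72 h, at 615 and 664 CPM against 82.7 and 99.4 CPM at 24 h, in 15 of 19 and 7 of 15 cells. Of 14 matrix genes in WT, Lama4, Lamb1, Emilin1 and Fn1 were higher and Mgp lower, and without the top cell Lama4 and Lamb1 did not stay past 2-fold. Fn1, fibronectin, was at 248 CPM at 24 h and 1630 CPM at 72 h in WT, and at 552 and 457 CPM in KO.

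**Figure D5:**
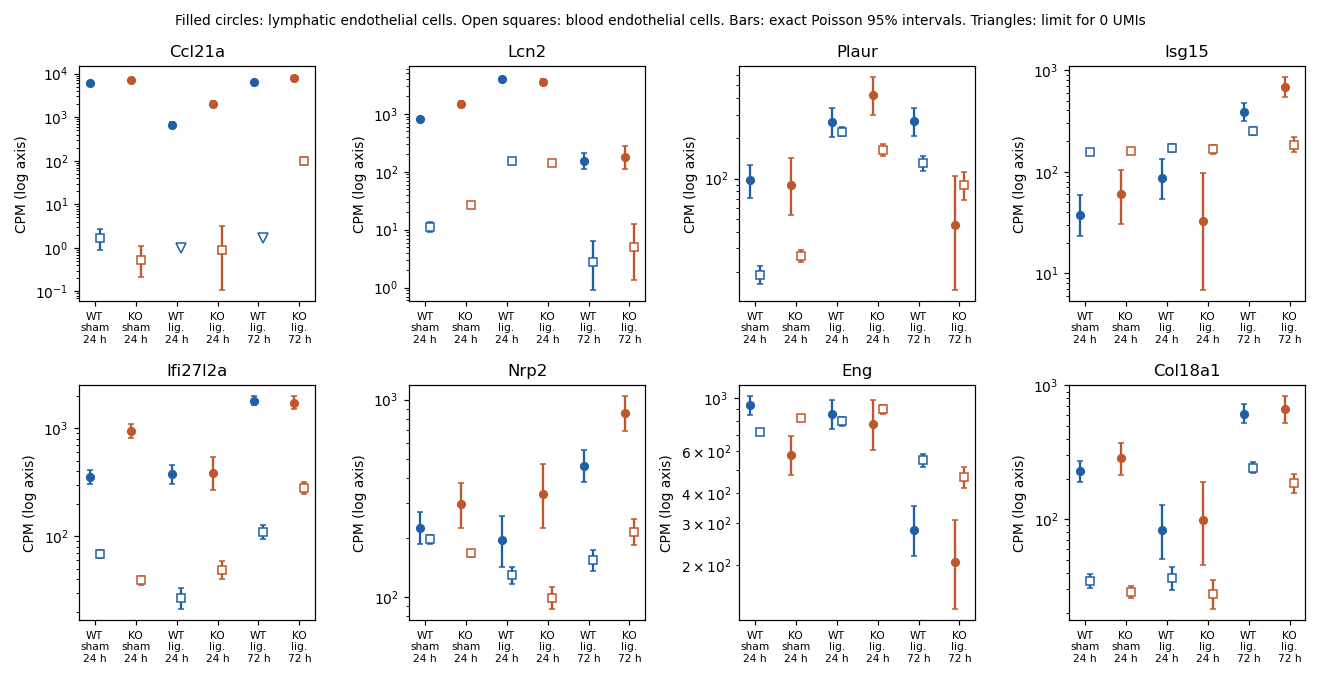
CPM on log axes of 8 genes in lymphatic endothelial cells (filled circles) and blood endothelial cells (open squares) of each library, blue WT and orange KO, with exact 95% Poisson intervals; a triangle is the upper limit where a library had 0 UMIs. Isg15 and Ifi27l2a reach their highest lymphatic levels at 72 h, Lcn2 at 24 h, and Eng its lowest at 72 h.

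After sham operation, KO and WT lymphatic cells differed in the levels of Angpt2 and of Igfbp5. Angpt2 was at 264 CPM in WT (139 UMIs in 19 of 44 cells) and 49.9 CPM in KO (10 UMIs in 6 of 26 cells), a log2 ratio of -2.40 (-3.49 to -1.48). Of 2419 genes measured, 3.6% were at least 2-fold higher and 3.89% lower in KO. All 3 measured growth factor ligands were lower: Angpt2, Adm (-1.07, and 0.06 without the WT cell that held 54.3% of its UMIs) and Pdgfb (-1.23, and -0.83 without its top cell). Ddah1, an enzyme that breaks down an inhibitor of nitric oxide synthase, was also lower (-2.00, in 23 and 6 cells). Within Lyve1-high cells the Angpt2 level was 139 CPM (WT) and 71.0 CPM (KO), and in the others it was 318 and 22.8 CPM. For Ddah1 the levels in Lyve1-high cells were alike, at 63.2 CPM (WT) and 62.1 CPM (KO), and in the others they were 201 and 11.4 CPM. Vwf, Hamp and Egr1 were lower as well, with their WT UMIs in 7, 4 and 4 cells. Of the Vwf UMIs 60.7% lay in 1 cell, and of the Egr1 UMIs 69.6%, with a log2 ratio of -2.39 for Egr1 that was -0.68 without that cell. Ccl2, a monocyte chemokine, had 133 UMIs in WT, of which 78.2% lay in 1 cell, and 1 UMI in KO.

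Higher in KO after sham were Igfbp5, which binds insulin-like growth factors, at 2272 CPM against 634 CPM (log2 ratio 1.84, 1.63 to 2.05, in 18 of 26 and 23 of 44 cells), Fndc1 (230 against 47.5 CPM) and Pcp4l1 (330 against 81.7 CPM). Cytl1 had a log2 ratio of 2.90 with 82.4% of its UMIs in 1 cell, and 0.39 without that cell. Of 17 measured lymphatic markers 4 were higher in KO (Lyve1, Maf, Thy1, Nts) and Tbx1 was lower, with a list median of 0.69 against -0.01 over all genes. Without the top cell of the gene, Lyve1 alone of the 5 stayed past 2-fold. Of the 364 KO Nts UMIs 282 lay in 2 cells, and within Lyve1-high cells Nts was at 346 CPM in KO against 980 CPM in WT. The share of Lyve1-high cells was 53.8% in KO (14 of 26, 33.4% to 73.4%) and 40.9% in WT (18 of 44, 26.3% to 56.8%), and these intervals overlap. Within Lyve1-high cells, Igfbp5 was at 2024 CPM in KO against 1277 CPM in WT, and within the other cells at 2591 against 358 CPM. The 7 fibroblast markers summed to 1133 CPM in KO and 292 CPM in WT sham lymphatic cells, without Col1a1 in either, and their part in these differences was not tested.

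At 24 h after ligation, Igfbp5 was again higher in KO, at 1580 CPM (143 UMIs in 5 of 10 cells) against 169 CPM in WT (41 UMIs in 10 of 19 cells), a log2 ratio of 3.22 (2.71 to 3.76), and 2.27 without the KO cell that held 48.3% of the UMIs. At 72 h Igfbp5 was at 2367 CPM in KO (6 of 15 cells) and 863 CPM in WT (7 of 19 cells), but 1 cell held 61.7% of the KO UMIs and 1 cell 81.5% of the WT UMIs, and the log2 ratio of 1.46 was 0.07 without the former. The KO library was the higher at each of the 3 conditions, and Igfbp5 in blood endothelial cells was higher in KO only at 24 h (325 against 52.0 CPM), with 92.7 against 106 CPM after sham and 202 against 258 CPM at 72 h. Of 1122 genes measured at 24 h, 2.32% were higher and 5.79% lower in KO. Mmrn1, a rule gene, was higher (2.01). The 5 lowest genes by rule were Hamp, Mb, Myl2, Tnnt2 and Fabp3. Hamp had all 147 WT UMIs in 1 cell, which held no Myl2 or Tnnt2, and another WT cell held 282 of the 283 Myl2 UMIs and 134 of the 135 Tnnt2 UMIs. Without the top cell of the gene, the ratios of Myl2 and Tnnt2 turned positive, with 8 and 4 UMIs in KO. No WT UMI of Mb or Fabp3 was then left, and none of Hamp in either library. The values of Mb, Fabp3 and Hamp without that cell therefore rest on the 3 counts set for a count of 0. Among lipid genes 3 of 4 were lower in KO (Fabp4, Fabp5, Apoe), and 1 of the 3, Apoe, stayed past 2-fold without the top cell of the gene. For Fabp4, at 475 CPM against 1252 CPM, that cell was the one with Myl2 (128 of 303 UMIs), and the log2 ratio went from -1.40 to -0.61 without it. Ccl21a was at 1999 CPM in KO against 665 CPM, with 51.9% of the KO UMIs in 1 cell and a log2 ratio of 1.59, or 0.53 without it, and Lcn2 differed little (3546 against 4067 CPM).

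At 72 h, 1220 genes were measured, of which 2.3% were higher and 4.67% lower in KO. None of 16 lymphatic markers passed 2-fold. Klf2, a transcription factor that responds to flow, was at 1013 CPM in KO and 268 CPM in WT, in 11 of 15 and 13 of 19 cells, a log2 ratio of 1.92 (1.47 to 2.38). Lower in KO were Plaur (44.8 against 268 CPM), Angptl4 (44.8 against 268 CPM), an inhibitor of lipoprotein lipase, the membrane protein Tm4sf1 (323 against 1666 CPM), Anxa1, an annexin that limits inflammation (296 against 1174 CPM), and Fn1 (457 against 1630 CPM). Apoe was at a log2 ratio of 3.97 beside the macrophage markers named above. Ratios of histone genes (Hist1h2ap, Hist1h1e, Hist1h2ae) and of Prc1 had over 90% of their UMIs in 1 KO cell. In the KO 72 h library 26.9% of all lymphatic UMIs came from 1 cell, against 17.2% in WT, and depth was 3026 against 8327 UMIs in the median cell.

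Single cells weighed on many of these ratios. Leaving out the top cell of a gene takes that cell's UMIs of the gene from the higher library and keeps the cell's other UMIs in the depth. This can only bring a ratio nearer to 1 or past it. It lowers the level in the higher library more than dropping the whole cell would. Over the 7 comparisons, the genes past 2-fold numbered 173, 123, 241, 82, 181, 91 and 85, in the order 24 h against sham in WT and in KO, 72 h against 24 h in WT and in KO, and KO against WT after sham, at 24 h and at 72 h. In 32, 11, 36, 21, 10, 36 and 16 of them 1 cell held over 50% of the UMIs of the higher library. Without the cell that held most of the gene, 68, 47, 114, 22, 84, 21 and 20 stayed past 2-fold. Of the 70 ratios that the size rule picked out, 38 had over 50% of their UMIs in 1 cell. At 72 h against 24 h, Ccl21a, Lcn2, Nrp2, Col18a1, Ifi27l2a and Eng had under 50% of their UMIs in 1 cell in both genotypes. The same held for Ccl21a, Lcn2 and Col18a1 at 24 h against sham. Even so, 2 KO ratios did not stay past 2-fold without the top cell. They were Lcn2 at 24 h against sham and Nrp2 at 72 h against 24 h.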

How the data were processed

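Single-cell RNA was measured in 6 libraries of non-cardiomyocytes. The deposited values are raw UMI counts per gene and cell, which the authors made with Cell Ranger 6.0.0 against mm10, per the submitters' processing notes. Genes and counts were used as deposited. From them, cells were kept and assigned by the rules in the text, UMIs were summed over the cells of a type in each library, and CPM is the sum of a gene per 1000000 UMIs of those cells. With 1 library per group there is no test. Intervals are exact Clopper-Pearson (shares), Poisson (levels) and conditional binomial (ratios) 95% intervals, for counting error only; the depth behind each value is the summed UMIs of the lymphatic cells, 90528 to 526637 per library.

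A gene counted as measured in a comparison with at least 50 UMIs over both libraries, and 2-fold is a limit of size. A count of 0 was set to 3 counts for a bound. The rule for named genes took all genes of the lists and the 5 highest and 5 lowest ratios of a comparison, among genes of at least 100 CPM in the higher library and at least 0.5 times the highest level in blood endothelial cells, fibroblasts or leukocytes, without mitochondrial, ribosomal, hemoglobin and sex-linked genes. Against blood endothelial cells it took the 30 highest and 10 lowest. The members and the gene lists were chosen with earlier results of these data known. Comparisons were planned for at least 20 lymphatic cells in each library, which 1 of 7 pairs met; a minimum of 10 was set after the counts were seen. Scrublet's own threshold marked too few cells to be used, so each library was given a rate of 0.8% per 1000 cells. The ratio step was tested on simulated data for 24 h against sham in WT, over 2604 genes: 100 of 100 genes raised 4-fold and 75 of 76 lowered 4-fold passed 2-fold, as did 14 of 2428 unchanged genes. The simulated counts were Poisson draws around pooled means, without spread between cells or mice. They check the calculation only and give no error rate for the 2-fold calls in the real data. Promoter sequences and starts are from RefSeq, GRCm38.p6. Python 3.11.15, numpy 2.4.6, scipy 1.17.1, pandas 2.3.3, scanpy 1.11.5 and matplotlib 3.10.9 were used.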

Additional observations from a re-analysis of the deposited data

Results flagged for a closer look

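Klf2 had opposite directions in the genotypes between 24 h and 72 h after ligation. Its log2 ratio in lymphatic endothelial cells was -1.43 in WT and 1.03 in KO, and the difference was not tested, with 1 library per group. Without the cell that held most of the gene in the higher library, the values were -0.93 and 0.42. Gm42418, a transcript of a ribosomal RNA locus, was likewise at -1.24 in WT and 1.16 in KO, and this difference was not tested either.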

How the results depend on the processing

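No paired analysis was possible because each group is 1 library. With cells thinned to 1000 UMIs, the ratio of lymphatic shares of kept cells was 0.333 for WT at 24 h against sham and 1.82 for WT at 72 h against 24 h, and the ratio of shares of endothelial cells was 0.715, 7.08 and, for KO at 72 h against 24 h, 11.4. The alternatives named next were chosen after seeing the data: adding other cells with at least 10 Ccl21a UMIs, leaving out members with transcripts of another lineage, keeping members with Lyve1 or Pdpn, and leaving out the top cell of a gene. Leaving out members with transcripts of another lineage kept 40 cells in WT sham, 23 in KO sham, 14 in WT and 9 in KO at 24 h, and 15 in WT and 13 in KO at 72 h. With the Ccl21a cells added, KO against WT at 72 h was 1.80 for kept cells and 1.85 for endothelial cells.

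At least 20 in place of 50 UMIs gave 320 genes 2-fold higher and 364 lower at 24 h against sham in WT, 176 and 302 in KO, 354 and 341 at 72 h against 24 h in WT, 181 and 148 in KO, and for KO against WT 303 and 346 after sham, 121 and 311 at 24 h and 122 and 287 at 72 h. With the mean over cells, 53 genes were lower in KO at 72 h against 24 h, and 74 higher and 122 lower in KO against WT at 72 h. Without the deepest cell, 25 were higher in KO at 72 h against 24 h and 42 in KO against WT at 24 h. Without members of another lineage, WT at 72 h against 24 h had 71 higher and 72 lower. The genes lower in KO against WT at 24 h were 35 without members of another lineage, 38 with Lyve1 or Pdpn members only, and 40 with at least 5 rule UMIs.

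Among the named genes and the genes of the gene and marker lists, the ratios that changed sign did so when 1 cell was left out. Some did so only through the 3 counts set for a count of 0. Over all genes past 2-fold, some turned the other way under other settings as well. The most were 4 of 241 genes, in WT at 72 h against 24 h with the mean over cells. Without the deepest cell, Hist1h2ap in KO against WT at 72 h was -3.78. Without the top cell of the gene, the log2 ratios there were 0.58 for Nrgn, -3.96 for Hist1h2ap, -1.27 for Hist1h1e, -2.23 for Prc1 and -2.86 for Hist1h2ae. In KO against WT at 24 h they were 1.42 for Hamp, 1.42 for Mb, 4.42 for Myl2, 3.42 for Tnnt2, 2.16 for Fabp3, -3.04 for Ecm1 and -0.75 for Ccn1. Myl2 in WT at 72 h against 24 h was 1.54 and Hist1h2ae in KO -0.30. Over genes of the gene and marker lists past 2-fold, the same setting gave at 24 h against sham in WT -0.46 for Tnni3 and 0.51 for Ccl2, at 72 h against 24 h in WT -0.049 for Tyms, -2.37 for Pf4 and 1.54 for Tnni3, and in KO against WT 0.056 for Adm after sham, 1.83 for Actc1, 2.52 for S100a8, 1.42 for S100a9, -2.32 for Cytl1 and 3.42 for Tnni3 at 24 h, and -1.89 for Ube2c and -0.0035 for Dusp1 at 72 h. Where no UMI was left in a library, 3 counts were set in its place, so some of these values are no measured reversal. This held in both libraries for Hamp in KO against WT at 24 h and for Hist1h2ae in KO at 72 h against 24 h. It held in WT for Mb and Fabp3 at 24 h and for Nrgn at 72 h. Myl2 and Tnni3 had 0 UMIs in WT at 72 h. The value for Tyms equals the ratio of the depths. The remaining 179 summary values and 1413 single values kept within their limits, and 141 single values moved beyond them. The KO 24 h library had the fewest lymphatic cells (10) and the fewest UMIs in them (90528). The KO 72 h library had the lowest median depth of a lymphatic cell (3026 UMIs).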
